A study of Mus musculus with 4 samples.

Results

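Genes of mitosis and of the G2/M transition were followed in RNA-seq libraries of mouse hair follicle stem cells in anagen, when follicles grow and make hair. The genes were chosen by symbol, with no threshold on a measured value but with earlier results of these data known. They were 51 names of mitotic cyclins and kinases, kinetochore, spindle, condensin, cytokinesis and anaphase genes. All 51 were among the 55401 genes of the deposited table. All 51 also passed the filter on low counts and were among the 14479 genes tested, and the lowest count of any of them in any library was 43. The cells came from C57BL/6 mice on a high-fat diet (HFD) for 4 months, with 2 libraries, or from C57BL/6 mice on a normal diet (ND), with 2 libraries. No transgene, drug or other treatment is named for either diet. The labels give no age or sex, do not say how the cells were isolated, and leave unsaid whether libraries of the same diet are from different mice. The p-values below therefore reflect variation among the sequenced libraries, part or all of which may be technical. The comparison asked whether the transcripts of cell division differed between the diets.

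Follicle stem cells lie in the bulge and are mostly quiescent, and they divide when a new growth phase starts. A cell enters mitosis when cyclin B and the kinase Cdk1 become active together. Chromosomes are then compacted by condensin, attached to the spindle at kinetochores, held under a checkpoint until all are attached, and separated when the anaphase-promoting complex marks securin and cyclin B for destruction. Most of the genes involved are transcribed late in the cell cycle, under the factors FoxM1 and B-Myb and the MuvB complex, so their transcripts mark cells that are passing through the cycle.

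Library totals were 8734246 and 8590570 counts with HFD and 9940848 and 9366856 counts with ND. Values per gene are given as CPM, the count's share of the library total, scaled by the TMM method, and 3 counts were worth 0.356 and 0.358 CPM with HFD and 0.291 and 0.313 CPM with ND. The libraries of a diet differed by more than sampling noise, with a chi-square of 6.53 per degree of freedom between the HFD libraries and 13.9 between the ND libraries. All 10 bulge and basal markers were detected, with sums of 20160 and 18710 CPM in the HFD libraries and 14310 and 16280 CPM in the ND libraries, and the keratin genes Krt5, Krt14 and Krt15 held most of these sums. Of the 10, 5 log2 fold changes were positive and 5, those of Lhx2, Nfatc1, Sox9, Cd34 and Lgr5, were negative, with a median of 0.04. Krt14 was called higher (edgeR, adjusted p = 0.033), beside 1.12% of all genes tested. DESeq2 called 1 of the 10 higher and 1 lower, beside 275 higher and 119 lower over all 14479 genes tested. Markers of suprabasal epidermis, cells that have left the cell cycle, summed to 3965 and 4925 CPM with HFD and to 1214 and 2873 CPM with ND. Of these 8 markers 3 were called higher (Dsg1a, Krtdap and Krt10) and 1 lower (Flg), beside 1.12% and 0.228% of all genes tested (edgeR). Of their log2 fold changes 7 of 8 were positive, where 49.9% of all genes tested were negative. The first ND library, in which the mitotic genes were highest, had the smallest suprabasal sum. It also had the smallest sums of bulge and basal, fibroblast, immune, endothelial and matrix and shaft markers, and the largest melanocyte sum. Sums of 8 fibroblast and dermal papilla markers were 82.0 and 66.0 CPM with HFD and 45.6 and 57.2 CPM with ND, and Corin was at 0 in all 4 libraries. The sums of 8 immune markers were 44.7 and 51.5 CPM with HFD and 19.0 and 38.0 CPM with ND. For 4 endothelial markers they were 17.4 and 22.7 CPM with HFD and 9.49 and 14.4 CPM with ND, and for 5 melanocyte markers 21.1 and 12.6 CPM with HFD and 26.4 and 12.6 CPM with ND. Of 5 adipocyte markers Adipoq, Plin1, Lep and Cidec were at 0 in all 4 libraries. Of 10 markers of hair matrix and shaft, Padi3 was at 0 and Krt31 and Krt35 had at most 4 counts in any library. The 10 summed to 223 and 246 CPM with HFD and to 152 and 209 CPM with ND. Gata3 alone held 181 and 202 CPM of this with HFD and 115 and 158 CPM with ND, and of the 6 tested markers 3 log2 fold changes were negative and 3 positive. Mitochondrial ribosomal RNA made up 13.8% and 14.3% of counts with HFD and 11% and 10.8% with ND. The part of other cell types, or of this RNA, in the mitotic result was not tested. In bulk samples, fewer dividing cells and less mitotic RNA per cell cannot be told apart.

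Of the 51 mitotic genes, 50 had a negative log2 fold change with HFD, but 2 passed the test. The 2 were Cdc20, the activator of the anaphase-promoting complex, and Cdca2, which brings a phosphatase to anaphase chromosomes. They fell to 0.569 and 0.528 of their ND levels. The median log2 fold change of the 51 genes was -0.47, beside 0.00181 over all genes tested. A negative value occurred in 49.9% of all genes tested. The edgeR quasi-likelihood test at an adjusted p under 0.05 called 2 of the 51 lower and 0 higher, beside 0.228% called lower and 1.12% called higher over all genes. DESeq2 called 5 lower and 0 higher, beside 119 lower and 275 higher over all 14479 genes tested. Limma called 0 of the 51 in either direction, beside 0 lower and 2 higher over all genes. Its counts of 0, here and by role below, therefore say little about the mitotic genes. At an unadjusted p under 0.05, 29 of the 51 were lower and 0 higher, beside 6.03% and 7.24% of all genes. These genes tend to be transcribed in the same cells at the same time, so they are not independent observations of the diets.

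The ND libraries differed from each other in these genes about as much as the diets did. Summed over the 51 genes, the libraries stood at 5760 and 6172 CPM with HFD, against 9770 and 6523 CPM with ND. The first ND library stood apart, while the second lay close to the HFD libraries. The first ND library was the highest of the 4 for 50 of the 51 genes, as it was for 28.5% of all genes tested. Its log2 ratio to the second ND library was above 0 for 50 of the 51 genes, with a median of 0.58, beside 49.8% of all genes and a median of -0.0014. The log2 ratio of the first to the second HFD library was above 0 for 17 of the 51 genes, with a median of -0.07, beside 49.0% of all genes and a median of -0.0073. For 36 of the 51 genes both HFD libraries lay below both ND libraries, beside 21.9% of all genes. For 1 gene, Pttg1, both lay above, beside 22.7% of all genes. In 7 further genes both HFD libraries lay above the second ND library and below the first, and in the last 7 the second ND library lay between the HFD libraries.

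**Figure D1:**
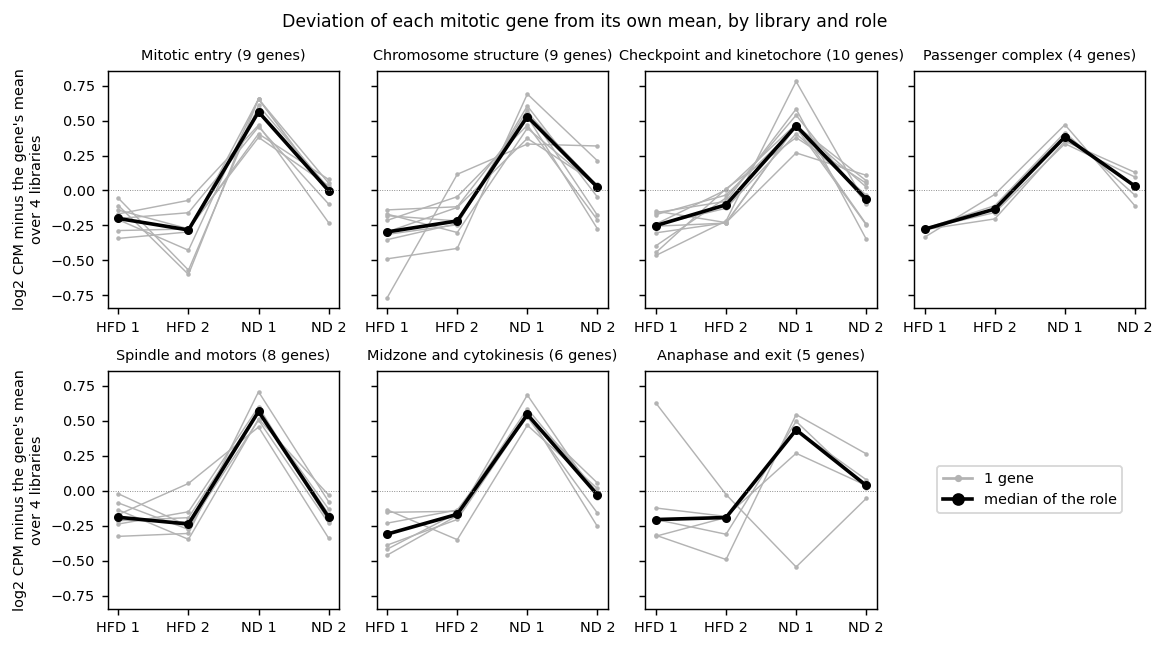
Each grey line is 1 mitotic gene and the black line the median of its role. The y axis is log2 CPM minus the gene's mean over the 4 libraries, and the x axis gives the libraries. In all 7 roles the median was highest in the first ND library, and the gene that runs the other way in the last panel is Pttg1.

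Set against the second ND library alone, the HFD libraries gave a median log2 fold change of -0.23, with negative values for 39 of the 51 genes, beside 48.5% of all genes. At an unadjusted p under 0.05, 3 of the 51 were lower (edgeR), beside 3.85% of all genes, so that share was near the background. Of the 51, 0 were called, as were 0 of all genes in either direction. Set against the first ND library alone, the median was -0.71, with negative values for 50 of 51 genes, beside 48.9% of all genes. Here 47 of the 51 were lower at an unadjusted p under 0.05 (edgeR), beside 7.21% of all genes. Again 0 of the 51 were called, where over all genes 0 were called lower and 3 higher. For 45 of the 51 genes the log2 ratio between the ND libraries was larger in size than that between the HFD mean and the second ND library. Cdc20 and Cdca2 kept the largest negative values against the second ND library alone, at -0.66 each, with edgeR adjusted p of 0.464 for both.

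**Figure D2:**
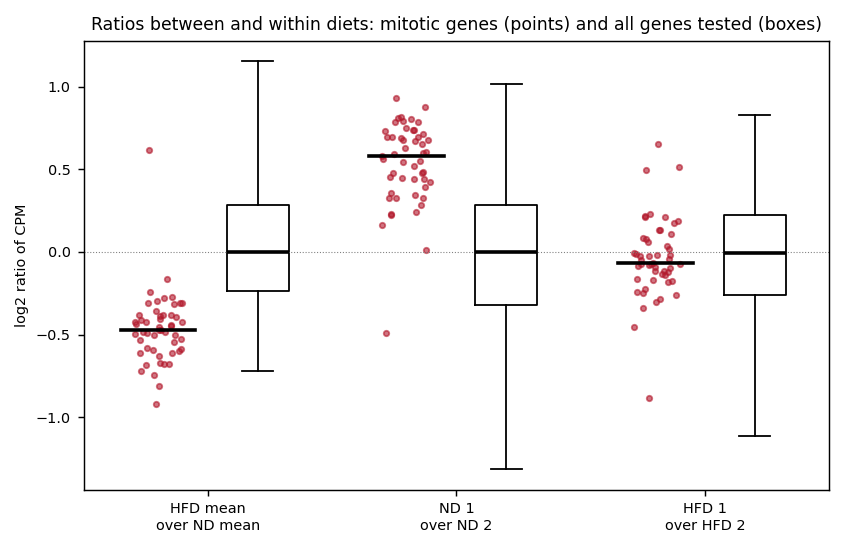
The y axis is the log2 ratio of CPM for 3 ratios: HFD mean over ND mean, first over second ND library, and first over second HFD library. Points are the 51 mitotic genes with their median as a bar, and boxes show all genes tested (quartiles, with whiskers from the 5th to the 95th percentile). The points of the first ratio lie around -0.47, those of the second around 0.58 and those of the third around -0.07.

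Promoters of the mitotic genes share a sequence feature that was not used to choose them. The CHR, or cell cycle genes homology region, is a short element bound by MuvB complexes, and it is often found with CCAAT boxes, which bind NF-Y. RefSeq promoters of build GRCm38.p6, running from 250 bases before to 50 bases after the transcript start, were at hand for 43 of the 51 genes. The letters TTTGAA or TTCGAA, on either strand, occurred within 50 bases of the start in 31 of these 43 genes (72.1%), beside 6.12% of 27025 genes with a promoter. Over the whole 300 bases the shares were 79.1% of the mitotic genes and 21.7% of all. CCAAT, on either strand, occurred in 74.4% of the mitotic genes and 41.1% of all, and at least 2 times in 48.8% and 13.3%. The median log2 fold change with HFD was -0.47 for the 31 genes with the CHR letters within 50 bases of the start. It was -0.40 for the 12 without them there, of which Mki67, Kif2c and Ncapd2 held them elsewhere in the 300 bases. For the 8 genes with no promoter at hand, Cdca2 among them, it was -0.47. Differences between these medians were not tested. A match describes letters and is not a known site. The promoters below are those of Cdc20 and of the next 7 genes by p that hold the CHR letters, among called genes and the 3 genes of highest mean FPKM in each role. Capitals mark CHR letters (TTTGAA, its reverse complement TTCAAA, or TTCGAA) and CCAAT boxes (CCAAT or its reverse complement ATTGG). The windows lie, in the order printed, at chr4:118437294-118437593 on the minus strand for Cdc20, at chr11:99024140-99024439 on the minus strand for Top2a, at chr7:80294201-80294500 on the plus strand for Prc1, at chr7:122159185-122159484 on the plus strand for Plk1, at chr2:118597961-118598260 on the plus strand for Bub1b, at chr6:124829926-124830225 on the plus strand for Cdca3, at chr2:164769679-164769978 on the plus strand for Ube2c and at chr1:189688037-189688336 on the minus strand for Cenpf.
Cdc20: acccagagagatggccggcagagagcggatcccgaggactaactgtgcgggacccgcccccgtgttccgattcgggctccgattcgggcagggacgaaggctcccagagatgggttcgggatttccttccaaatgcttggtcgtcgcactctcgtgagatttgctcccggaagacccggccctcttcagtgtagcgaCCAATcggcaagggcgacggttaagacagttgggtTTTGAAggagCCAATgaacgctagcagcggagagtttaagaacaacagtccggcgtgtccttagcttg
Top2a: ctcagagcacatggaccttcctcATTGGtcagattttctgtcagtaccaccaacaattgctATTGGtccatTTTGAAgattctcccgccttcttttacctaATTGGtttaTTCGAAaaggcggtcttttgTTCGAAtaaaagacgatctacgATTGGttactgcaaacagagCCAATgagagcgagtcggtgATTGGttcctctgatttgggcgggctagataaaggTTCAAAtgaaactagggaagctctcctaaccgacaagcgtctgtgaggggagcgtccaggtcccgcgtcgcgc
Prc1: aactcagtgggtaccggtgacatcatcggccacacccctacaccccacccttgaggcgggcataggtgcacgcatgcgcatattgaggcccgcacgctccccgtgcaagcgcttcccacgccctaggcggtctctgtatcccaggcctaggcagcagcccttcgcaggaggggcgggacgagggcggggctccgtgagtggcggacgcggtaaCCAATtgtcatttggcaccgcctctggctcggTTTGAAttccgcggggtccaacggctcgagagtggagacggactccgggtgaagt
Plk1: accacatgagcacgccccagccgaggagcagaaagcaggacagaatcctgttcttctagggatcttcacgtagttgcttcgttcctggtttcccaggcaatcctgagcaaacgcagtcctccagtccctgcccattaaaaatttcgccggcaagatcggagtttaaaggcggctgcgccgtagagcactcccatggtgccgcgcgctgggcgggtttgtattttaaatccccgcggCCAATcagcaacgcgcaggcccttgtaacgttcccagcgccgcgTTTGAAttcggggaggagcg
Bub1b: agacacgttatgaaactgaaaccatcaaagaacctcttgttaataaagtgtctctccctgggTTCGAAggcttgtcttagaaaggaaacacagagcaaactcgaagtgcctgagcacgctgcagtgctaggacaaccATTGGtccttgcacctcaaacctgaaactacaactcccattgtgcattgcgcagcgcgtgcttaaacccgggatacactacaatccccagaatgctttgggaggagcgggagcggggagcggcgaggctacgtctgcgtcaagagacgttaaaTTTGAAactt
Cdca3: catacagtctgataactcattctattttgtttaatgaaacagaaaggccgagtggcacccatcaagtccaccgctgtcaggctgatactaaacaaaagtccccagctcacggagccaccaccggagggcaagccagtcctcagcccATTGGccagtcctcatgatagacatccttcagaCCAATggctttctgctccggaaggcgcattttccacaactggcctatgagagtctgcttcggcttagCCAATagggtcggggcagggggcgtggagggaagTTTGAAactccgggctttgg
Ube2c: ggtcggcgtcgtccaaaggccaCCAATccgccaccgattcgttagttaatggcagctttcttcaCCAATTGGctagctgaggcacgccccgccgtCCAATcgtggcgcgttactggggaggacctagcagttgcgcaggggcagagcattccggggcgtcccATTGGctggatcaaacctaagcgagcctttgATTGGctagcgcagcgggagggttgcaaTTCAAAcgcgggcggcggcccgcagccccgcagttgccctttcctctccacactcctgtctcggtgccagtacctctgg
Cenpf: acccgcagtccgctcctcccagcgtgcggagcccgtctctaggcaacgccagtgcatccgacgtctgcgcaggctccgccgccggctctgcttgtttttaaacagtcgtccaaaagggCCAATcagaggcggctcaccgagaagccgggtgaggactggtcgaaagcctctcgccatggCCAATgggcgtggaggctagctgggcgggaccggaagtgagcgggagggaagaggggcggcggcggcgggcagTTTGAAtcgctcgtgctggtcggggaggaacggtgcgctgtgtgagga
Read from the start of transcription, the CHR letters began at position -18 in Cdc20, between CCAAT boxes at -53 and -8. They began at -5 in Prc1, at 3 in Cenpf, at 31 in Plk1 and Cdca3, and at 41 in Bub1b, which also held TTCGAA at -188. In Ube2c they lay on the other strand at -29, where TTCAAA is printed. Top2a held 4 matches, of which the nearest began at -23, and 6 CCAAT boxes.

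**Figure D3:**
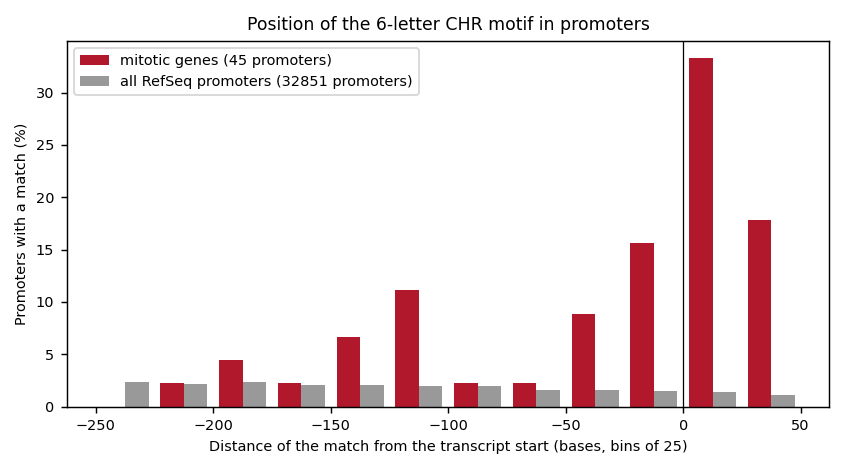
The x axis is the distance of a CHR match from the transcript start in bins of 25 bases, and the y axis the percent of promoters with a match in the bin. Red bars are the 45 promoters of 43 mitotic genes and grey bars all 32851 RefSeq promoters. The highest red bar, at 33.3%, covers the first 25 bases after the start, where the grey bar stands at 1.43%.

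The regulators of mitotic entry had 9 of 9 negative log2 fold changes and a median of -0.59, and 0 passed the test (edgeR; 7 lower at an unadjusted p under 0.05, 0 by DESeq2 and 0 by limma). Ccnb2, a B-type cyclin and partner of Cdk1, had 70.4 and 72.4 CPM in the HFD libraries, against 111 and 75.6 CPM in the ND libraries. The kinase gene Plk1, which drives spindle assembly and mitotic exit, had 47.9 and 49.5 CPM with HFD, against 95.6 and 60.1 CPM with ND. The transcription factor gene Foxm1 had 91.3 and 92.0 CPM with HFD, against 164 and 111 CPM with ND. In all 3 the HFD libraries lay together below both ND libraries, closest to the second in Ccnb2. Ccnb2 had a log2 fold change of -0.39 ± 0.18 (edgeR adjusted p = 0.392), Plk1 of -0.68 ± 0.21 (0.176) and Foxm1 of -0.59 ± 0.18 (0.164), each ± SE. The other 6 were Cdk1, the cyclin Ccnb1, the phosphatases Cdc25b and Cdc25c that activate Cdk1, the kinase Aurka and Mybl2, which encodes B-Myb. Their log2 fold changes ran from -0.72 for Mybl2 to -0.28 for Cdc25c. Cdk1 itself had 64.1 and 55.1 CPM with HFD, against 117 and 73.1 CPM with ND (log2 fold change -0.67 ± 0.21 SE, edgeR adjusted p = 0.179). Cdc25c was the 1 gene of this role whose HFD values, 24.1 and 25.8 CPM, were above the second ND library at 23.1 CPM, and its first ND library stood at 37.4 CPM.

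Genes of chromosome structure had 9 of 9 negative log2 fold changes and a median of -0.48. The test called 1, Cdca2, lower (edgeR; 5 lower at an unadjusted p under 0.05, 2 by DESeq2, which added Top2a, and 0 by limma). This role included the 3 most abundant of the 51 genes per length. The deposited FPKM, which divides a count by exon length and library total, averaged 143 over the 4 libraries for Mki67, 86.2 for Top2a and 63.9 for Smc4, beside a median of 17.1 over the 51 genes and of 5.0 over all genes tested. Mki67, which encodes the coat protein of mitotic chromosomes used as a proliferation marker, had 1207 and 1357 CPM with HFD, against 1934 and 1210 CPM with ND. Its HFD libraries lay on either side of the second ND library, and the difference between diets (log2 fold change -0.29 ± 0.18 SE) did not pass the test (edgeR adjusted p = 0.533). Top2a, the topoisomerase that untangles sister chromatids, had 586 and 635 CPM with HFD, against 1098 and 766 CPM with ND. Its HFD libraries lay below both ND libraries, and its log2 fold change of -0.61 ± 0.16 (SE) missed the threshold (edgeR adjusted p = 0.095).

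Cdca2 encodes Repo-Man, which recruits protein phosphatase 1 to chromosomes in anaphase (chromosome 14, positions 67676331 to 67715841 on GRCm38, minus strand). It had 315 and 330 counts in the HFD libraries, against 873 and 582 counts in the ND libraries, which are 37.4 and 39.4 CPM with HFD and 84.6 and 60.8 CPM with ND. The HFD libraries lay close together and well below both ND libraries. Means were 38.4 ± 1.40 CPM with HFD and 72.7 ± 16.8 CPM with ND (SD, n = 2 each), a log2 fold change of -0.92 ± 0.19 (SE; edgeR adjusted p = 0.040). The call was lost when any 1 of the 4 libraries was left out, where few of all genes were called lower. The log2 fold change of Cdca2 then lay between -1.14 and -0.66. The call was also lost with limma (adjusted p 0.183 to 0.460) and with libraries scaled to equal sums of TPM (edgeR, 0.10). Every log2 fold change stayed negative.

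The genes of condensin had log2 fold changes of smaller size than Cdca2, a difference between genes that was not tested. Smc4, a core ATPase, had 266 and 300 CPM with HFD, against 422 and 336 CPM with ND, and its log2 fold change of -0.42 ± 0.14 (SE) did not pass (edgeR adjusted p = 0.205). Its partner Smc2 and the subunit genes Ncapd2, Ncapg and Ncaph had log2 fold changes of -0.48, -0.59, -0.45 and -0.31. By mean FPKM over the 4 libraries the core genes Smc4 and Smc2 stood at 63.9 and 36.0, and Ncapd2, Ncaph and Ncapg at 32.6, 17.8 and 10.9. Cdca5, which encodes sororin, a protector of sister cohesion, was a low gene, with 66 and 121 counts in the HFD libraries and 173 and 159 counts in the ND libraries. It was the gene with the most similar ND libraries (16.8 and 16.6 CPM) and the most different HFD libraries (7.83 and 14.4 CPM), with a log2 fold change of -0.58 ± 0.33 (SE; edgeR adjusted p = 0.487).

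**Figure D4:**
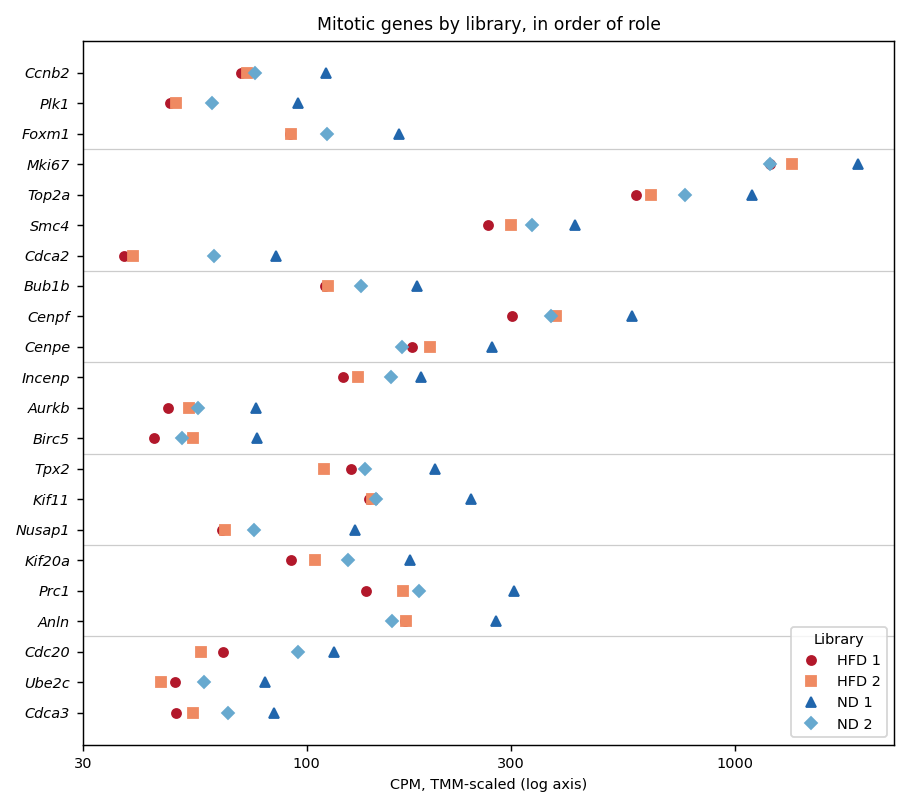
The x axis is TMM-scaled CPM on a log scale, and each row is a gene, in order of role: entry, chromosome structure, checkpoint and kinetochore, passenger complex, spindle, midzone and anaphase. Each symbol is 1 library. The first ND library is the rightmost symbol in all 22 rows, and in Mki67, Cenpe, Birc5, Anln and Cenpf the second ND library lies at, among or left of the HFD symbols.

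Checkpoint and kinetochore genes had 10 of 10 negative log2 fold changes, a median of -0.41 and 0 calls (edgeR; 4 lower at an unadjusted p under 0.05, 0 by DESeq2 and 0 by limma). Bub1b, which encodes the checkpoint protein BubR1 that holds back Cdc20, had 110 and 112 CPM with HFD, against 181 and 134 CPM with ND. Cenpf, a large kinetochore protein gene, had 302 and 383 CPM with HFD, against 576 and 373 CPM with ND. Cenpe, the kinetochore kinesin gene, had 176 and 194 CPM with HFD, against 271 and 167 CPM with ND. The diets did not overlap in Bub1b, while in Cenpf and Cenpe at least 1 HFD library was above the second ND library. Bub1b had a log2 fold change of -0.51 ± 0.16 (edgeR adjusted p = 0.181), Cenpf of -0.47 ± 0.19 (0.301) and Cenpe of -0.25 ± 0.19 (0.650), each ± SE. The checkpoint kinases Bub1 and Ttk had values of -0.74 and -0.39, and the checkpoint protein gene Mad2l1 one of -0.31. Mad2l1 had the largest gap between the ND libraries on the log2 scale of all 51 genes, with 43.2 and 45.7 CPM with HFD, against 72.2 and 37.9 CPM with ND. Of the outer kinetochore genes, Nuf2, Spc25 and Ndc80, whose proteins share a complex, had log2 fold changes of -0.55, -0.38 and -0.27. Cenpa, the centromeric histone gene, had one of -0.42.

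The chromosomal passenger complex corrects attachment errors and then moves to the spindle midzone. All 4 of its genes had negative values, with a median of -0.42 and 0 calls (edgeR; 2 lower at an unadjusted p under 0.05, 0 by DESeq2 and 0 by limma). Incenp, the scaffold, had 121 and 132 CPM with HFD, against 185 and 157 CPM with ND. The kinase gene Aurkb had 47.4 and 53.1 CPM with HFD, against 76.2 and 55.9 CPM with ND. Birc5, which encodes survivin, had 43.9 and 54.3 CPM with HFD, against 76.6 and 51.3 CPM with ND. The diets were apart for Incenp, narrowly apart for Aurkb and overlapped for Birc5. Incenp had the smallest standard error of the 51 genes, at a log2 fold change of -0.44 ± 0.14 (SE; edgeR adjusted p = 0.188). Aurkb and Birc5 had -0.40 ± 0.18 and -0.38 ± 0.21 (SE), and Cdca8, the borealin gene, -0.49 ± 0.16 (SE; adjusted p = 0.210).

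Of the 7 roles, spindle and motor genes had the median nearest 0 against the second ND library. All 8 log2 fold changes were negative, with a median of -0.45 and 0 calls (edgeR; 4 lower at an unadjusted p under 0.05, 0 by DESeq2 and 0 by limma), but against the second ND library alone the median was -0.0048, with 4 of 8 negative. Their summed values were 739 and 735 CPM with HFD, against 1215 and 737 CPM with ND, so that the second ND library lay between the HFD libraries. Kif11, the motor that pushes spindle poles apart, had 140 and 142 CPM with HFD, against 241 and 145 CPM with ND. Tpx2, a spindle assembly factor and activator of Aurora A, had 127 and 110 CPM with HFD, against 199 and 137 CPM with ND. Nusap1, which bundles microtubules, had 63.4 and 64.3 CPM with HFD, against 130 and 75.3 CPM with ND. In Kif11 3 libraries were nearly level and the first ND library stood alone, whereas in Nusap1 and Tpx2 the second ND library also lay above both HFD libraries. Kif11 had a log2 fold change of -0.45 ± 0.20 (edgeR adjusted p = 0.351), Tpx2 of -0.51 ± 0.18 (0.232) and Nusap1 of -0.68 ± 0.22 (0.192), each ± SE. The chromokinesins Kif4 and Kif22, the microtubule depolymerase gene Kif2c and the spindle gene Hmmr had values between -0.47 and -0.32. Aspm, a spindle pole gene, had the value nearest 0 of all 51, at -0.17 ± 0.21 (SE), with 160 and 186 CPM with HFD, against 246 and 142 CPM with ND.

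Midzone and cytokinesis genes had 6 of 6 negative values, a median of -0.55 and 0 calls by edgeR (4 lower at an unadjusted p under 0.05), whereas DESeq2 called 2, Kif20a and Prc1, and limma 0. Kif20a, a kinesin that carries the passenger complex to the midzone, had 92.0 and 104 CPM with HFD, against 175 and 125 CPM with ND. Prc1, which crosslinks antiparallel microtubules, had 138 and 168 CPM with HFD, against 305 and 183 CPM with ND. Anln, the contractile ring gene anillin, had 169 and 170 CPM with HFD, against 277 and 158 CPM with ND. The diets did not overlap in Kif20a and Prc1, and in Anln both HFD libraries were above the second ND library. Kif20a had a log2 fold change of -0.61 ± 0.17 (edgeR adjusted p = 0.122), Prc1 of -0.68 ± 0.20 (0.168) and Anln of -0.36 ± 0.21 (0.508), each ± SE. Racgap1 and Kif23, which form the centralspindlin complex, had values of -0.60 and -0.41, and Ect2, whose protein centralspindlin recruits for cytokinesis, one of -0.50.

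Genes of anaphase and mitotic exit had 4 of 5 negative log2 fold changes and a median of -0.53. The test called 1, Cdc20, lower (edgeR; 3 lower at an unadjusted p under 0.05, 1 by DESeq2 and 0 by limma), and the gene with a positive value was Pttg1. Cdc20 (chromosome 4, positions 118432901 to 118437352 on GRCm38, minus strand) had 537 and 474 counts in the HFD libraries, against 1196 and 914 counts in the ND libraries. These are 63.7 and 56.5 CPM with HFD and 116 and 95.4 CPM with ND, so both HFD libraries were far below both ND libraries. The mean was 60.1 ± 5.08 CPM with HFD and 106 ± 14.4 CPM with ND (SD, n = 2 each), a log2 fold change of -0.81 ± 0.16 (SE; edgeR adjusted p = 0.033). Leaving out any 1 of the 4 libraries lost the call, where few of all genes were called lower. The log2 fold change of Cdc20 then lay between -0.95 and -0.66. The call was also lost with limma (adjusted p 0.133 to 0.456) and with equal sums of TPM (edgeR, 0.092). Every log2 fold change stayed negative. By mean FPKM over the 4 libraries Cdc20, at 44.8, came after Mki67, Top2a, Smc4 and Ccnb2, the last of these at 54.0.

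Ube2c, the ubiquitin-conjugating enzyme of the anaphase-promoting complex, had 49.1 and 45.7 CPM with HFD, against 79.9 and 57.4 CPM with ND. Cdca3, grouped here although it promotes entry into mitosis, had 49.5 and 54.3 CPM with HFD, against 83.8 and 65.5 CPM with ND. In both genes the HFD libraries lay below both ND libraries, and neither passed the test. The log2 fold change was -0.54 ± 0.19 (SE) for Ube2c (edgeR adjusted p = 0.233) and -0.53 ± 0.17 (SE) for Cdca3 (0.202). Espl1, the gene of separase, which cuts cohesin, had a value of -0.31 ± 0.16 (SE). Its inhibitor securin, Pttg1, was the lowest of the 51 genes per length, at a mean of 3.15 FPKM. Pttg1 had 79 and 50 counts in the HFD libraries and 43 and 56 counts in the ND libraries. That is 9.38 and 5.96 CPM with HFD and 4.17 and 5.85 CPM with ND, and the log2 fold change of 0.62 ± 0.44 (SE) did not pass the test (edgeR adjusted p = 0.612).

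**Figure D5:**
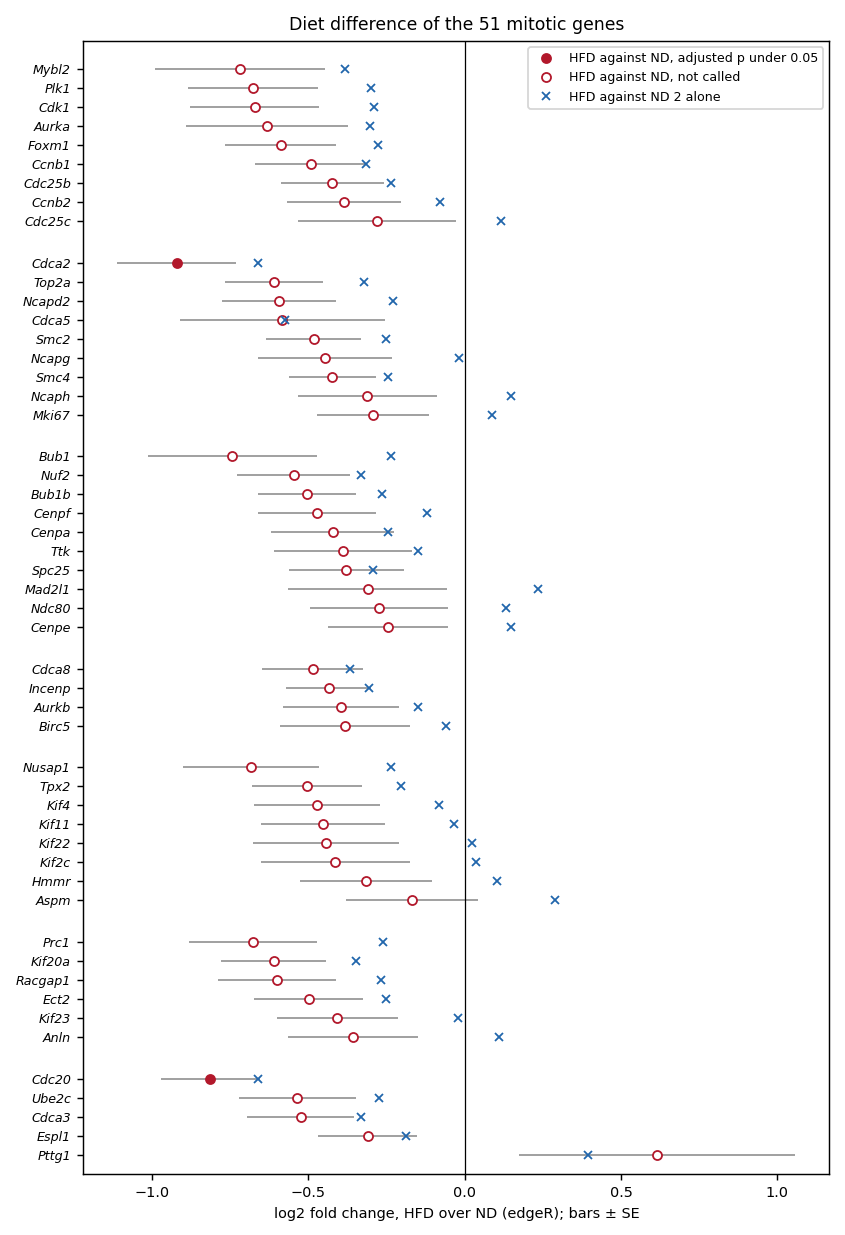
The x axis is the edgeR log2 fold change of HFD over ND with its SE as a bar, and the rows are the 51 genes grouped by role, in order of value. Filled circles mark Cdc20 and Cdca2, the genes with an adjusted p under 0.05, and crosses give the log2 fold change against the second ND library alone. Of the 51 crosses 39 lie left of 0, and 50 of the 51 circles do.

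Genes of mitosis outside the 51 mostly had negative values too, and none passed the edgeR test. Of 101 further mitotic genes 100 were tested, of which 94 had negative log2 fold changes, beside 49.9% of all genes. The median of the 100 was -0.45, and against the second ND library alone it was -0.23, with 77 negative. Of the 100, 0 were called (edgeR), beside 0.228% of all genes called lower. At an unadjusted p under 0.05, 40 were lower and 0 higher (edgeR), beside 6.03% and 7.24% of all genes. DESeq2 called 12 lower, beside 119 of all 14479 genes tested, and limma called 0. The smallest p-values belonged to Tacc3, a spindle stabiliser, Ercc6l, which resolves DNA bridges in anaphase, and Lmnb1, the gene of lamin B1. Tacc3 had 59.7 and 55.0 CPM with HFD, against 91.3 and 90.2 CPM with ND, so that here the ND libraries were level and the diets apart (log2 fold change -0.66 ± 0.15 SE, edgeR adjusted p = 0.052). Ercc6l had 33.6 and 33.4 CPM with HFD, against 58.1 and 54.2 CPM with ND (log2 fold change -0.75 ± 0.17 SE, adjusted p = 0.059). Lmnb1 had 199 and 202 CPM with HFD, against 376 and 268 CPM with ND (adjusted p = 0.060). Within this list, 20 genes of cohesin and of the core anaphase-promoting complex, which are expressed through the whole cycle, had a median of -0.16 with 16 negative. The other 80 had a median of -0.49 with 78 negative. In the ND libraries the first over the second gave a median log2 ratio of 0.09 for the 20 genes and 0.40 for the 80, beside 0.58 for the 51 mitotic genes.

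The table itself lists the term cell division for 26 of the 51 genes and for 1.89% of all genes tested. The other 248 tested genes with that term had a median log2 fold change of -0.17, with 178 negative and 0 called (edgeR). At an unadjusted p under 0.05, 41 of the 248 were lower and 5 higher (edgeR), beside 6.03% and 7.24% of all genes. DESeq2 called 7 lower and 1 higher, beside 119 and 275 of all 14479 genes tested, and limma called 0. The 51 genes lay on 17 chromosomes, and 10 of them were on chromosome 2, which held 7.39% of the genes tested. Genes of DNA replication, which precede mitosis in the cycle, had 39 of 41 negative values with a median of -0.43. Over all genes tested 49.9% were negative. Of the 41, the polymerase gene Pold1 was called lower (edgeR adjusted p = 0.033), beside 0.228% of all genes. At an unadjusted p under 0.05, 27 were lower and 0 higher (edgeR), beside 6.03% and 7.24% of all genes. DESeq2 called 4 lower and limma 0. For the replication genes the median log2 ratio between the first and the second ND library was 0.32.

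Of 17 genes of the MuvB, Rb, E2F and NF-Y complexes, which switch mitotic genes on and off, 13 had negative values. The median of the 17 was -0.33, and 49.9% of all genes tested were negative. Of the 17, 0 were called by edgeR, 0 by DESeq2 and 0 by limma. At an unadjusted p under 0.05, 6 were lower and 0 higher (edgeR), beside 6.03% and 7.24% of all genes. E2f7, a repressor that itself follows the cycle, had 19.2 and 14.8 CPM with HFD, against 35.9 and 28.2 CPM with ND (log2 fold change -0.91 ± 0.24 SE, edgeR adjusted p = 0.106). Of 16 tested D-type cyclins, early kinases, kinase inhibitors and p53 pathway genes, 8 had negative and 8 positive values, and 0 were called (edgeR). At an unadjusted p under 0.05, 4 of the 16 were lower and 3 higher (edgeR), beside 6.03% and 7.24% of all genes. DESeq2 called 1 lower and 1 higher, beside 119 and 275 of all 14479 genes tested, and limma called 0. Ccnd2 had 298 and 297 CPM with HFD, against 191 and 214 CPM with ND (log2 fold change 0.55 ± 0.12 SE, edgeR adjusted p = 0.052). Ccnd1, the related cyclin, had 161 and 199 CPM with HFD, against 354 and 237 CPM with ND (log2 fold change -0.71 ± 0.18 SE, adjusted p = 0.093). The inhibitor gene Cdkn1a had 36.0 and 41.0 CPM with HFD, against 19.9 and 25.6 CPM with ND (log2 fold change 0.76 ± 0.22 SE, adjusted p = 0.132). The diets did not overlap in any of these 3 genes, which had the smallest p-values of the 16. Of the 16, both HFD libraries lay below both ND libraries for 7 and above both for 4. These shares over all genes tested were 21.9% and 22.7%.

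Some of the values rest on genes that overlap others, and whether the counting used strand is not given in the sources used here. Kif20a overlaps Cdc23 on the other strand over 2327 bases, and Cdc23 had 400 and 392 counts with HFD and 732 and 586 counts with ND. Prc1 overlaps Rccd1 on the other strand over 21810 bases, and Rccd1 had at most 79 counts in a library. Cdc20 overlaps Elovl1 over 53 bases and Ncapg overlaps Lcorl over 3366 bases, both on the other strand. These overlaps are of whole gene spans, introns included, and the overlap of exons was not measured. Only reads that fall in exons of both partners cannot be told apart without strand. Ccnb1 has a processed copy, Ccnb1-ps, with 39 and 48 counts with HFD and 76 and 37 counts with ND, so the value of Ccnb1 is uncertain. For Cdca2 the table held no overlapping gene.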

How the data were processed

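Per the submitters' processing notes HISAT2 2.0.1, cutadapt 1.9.1 and bcl2fastq 2.17.1.14 were used, with no roles stated. How reads were counted, whether by strand, and on which annotation and build is not given in the sources used here. Raw counts and FPKM were deposited by the authors per gene, for each of the 4 libraries. Recomputing the deposited FPKM from count, exonic size and column total left differences of at most 0.005. Of 55401 gene identifiers, 54821 have the same chromosome, start and end in GENCODE M21, so positions are on GRCm38.

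Counts were tested with edgeR 4.0.16 in R 4.3.3 (quasi-likelihood test, TMM, default filter by group, no replicate term), with Benjamini-Hochberg adjustment over 14479 genes and calls at an adjusted p under 0.05. Genes varied between libraries of a diet by 20.3% (common biological coefficient of variation). The SE is the log2 fold change divided by the square root of F. Alternatives used DESeq2 1.42.0 and limma 3.58.1 on log2(FPKM + 1) or + 0.1, where fold changes of low genes are understated. The 51 genes and the other lists were chosen with earlier results of these data known. Full values are given for called genes and, in each role, for the 3 genes of highest mean FPKM; Mad2l1, Aspm, Cdk1, Cdc25c, Cdca5 and Pttg1 were added after their values were seen. Promoters are from RefSeq (GRCm38.p6). Counting error alone underlies the floor of 3 counts.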

Additional observations from a re-analysis of the deposited data

How the results depend on the processing

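The median log2 fold change of the 51 mitotic genes stayed negative under all alternatives, between -0.71 and -0.23 with 1 library left out and between -0.56 and -0.44 otherwise. The number called lower was 2 in the main analysis, 17 with no filter on low counts, 5 with DESeq2, 6 with a replicate block, 3 at a threshold of 0.10, and 0 with equal sums of TPM and with the 3 limma fits. With 1 library left out it was 0 each time, and 0 were called higher in any fit. Of the further mitotic list 0 were called lower in the main analysis, 8 with library totals alone, 18 with no filter, 9 with at least 50 counts in 2 libraries, 12 with DESeq2, 9 with a robust prior, 13 with the replicate block and 11 at 0.10. Over all genes, 162 were higher and 33 lower. With no filter these were 408 and 225, with 50 counts 249 and 73, with DESeq2 275 and 119, with the block 308 and 111, at 0.10 280 and 101, with equal sums of TPM 88 and 3, and with limma 2 and 0 (pseudocounts 1 and 0.1) or 0 and 0 (no filter). Library totals alone gave 65 lower and the robust prior 60 lower. With 1 library left out, between 0 and 81 were higher and between 0 and 2 lower. The titles give both diets the same replicate numbers without saying that they pair libraries. The within-diet differences of the diets correlated at -0.0046 across genes. With a single difference per diet, this value cannot decide whether the numbers pair libraries. Without the first ND library 11 genes turned positive, with log2 fold changes of 0.086 (Mki67), 0.23 (Mad2l1), 0.15 (Cenpe and Ncaph), 0.037 (Kif2c), 0.024 (Kif22), 0.11 (Anln and Cdc25c), 0.10 (Hmmr), 0.29 (Aspm) and 0.13 (Ndc80). Their ranges over the libraries left out reached -0.60, -0.70, -0.55, -0.66, -0.76, -0.80, -0.71, -0.59, -0.64, -0.51 and -0.59 for Mki67, Mad2l1, Cenpe, Ncaph, Kif2c, Kif22, Anln, Cdc25c, Hmmr, Aspm and Ndc80. With a library left out, the lone library of its diet is assumed to vary like the other pair. The causes of these changes were not tested.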
